A study of Danio rerio with 6 samples.

Results

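The genes described here are the amino acid and peptide transporters of zebrafish intestine, chosen by name from the solute carrier families slc1, slc3, slc6, slc7, slc15, slc36, slc38 and slc43, without the slc6a19 genes. The deposited table holds 47 such genes among 12398, and all 47 were tested. No slc36 gene was among them, and slc15a1a, slc3a1 and slc7a9 were not analysed here. One of the 47, slc7a6os, matches by name only: it is the opposite-strand neighbour of slc7a6 and no carrier. RNA-seq was performed on full-thickness proximal (S1) intestine of adult male wild-type Ekk zebrafish, 2 weeks after surgery. Short bowel syndrome (SBS) fish had a laparotomy, a proximal ostomy at the junction of the first and second segments, removal of the middle segments and a ligated distal intestine. Sham fish had a ventral laparotomy and their bowel was not handled. Per the study's methods, the samples with the highest RNA concentration in each group were sequenced.

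Amino acids reach the blood through the enterocyte in steps, and the members belong to different ones. Peptidases on the brush border cut peptides, slc15a1 (PepT1) takes up dipeptides and tripeptides with protons, and sodium-coupled carriers of the slc1 and slc6 families take up free amino acids. At the basolateral side, light chains of the slc7 family (slc7a7, slc7a8) work as exchangers bound to the heavy chain slc3a2, and slc43a2 (LAT4 in mammals) lets neutral amino acids leave by facilitated diffusion. Other members are known from liver, such as slc38a3 and slc38a4, or from neurons, such as the glycine, dopamine and serotonin carriers of slc6.

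In the deposited table the counts of SBS replicates 1 and 2 are identical in each of its 12488 rows. They were taken as 1 library, which leaves 5 distinct libraries, 2 SBS and 3 sham. The study lists different numbers of mapped reads for these samples, so at most 1 of them is represented by the repeated column, named SBS replicate 1 here, and separate counts of the other were not analysed here. SBS replicate 1 held 20377652 reads on genes, all its counts even, and SBS replicate 3 held 38867364, against 38728394 to 47142289 in the sham libraries. Levels are given as RPKM, reads per kilobase of gene length scaled to library size with TMM. A list of 16 measured absorptive enterocyte markers summed to 12788 and 41075 RPKM in the SBS libraries, against 93294 to 153150 RPKM in the sham libraries, and none of its genes was at 0 in any library. Of these 16 genes, 3 were called lower and 2 higher in SBS by the quasi-likelihood test of edgeR. The likelihood ratio test called 9 lower, against 5.78% of all genes, and 2 higher, against 9.81% of all genes. Both SBS libraries were below all sham libraries for 13 of the 16, against 24.3% of all genes. The genes called higher by both tests were plin2 and apoa1b, and apoa1b alone had 4337 and 1393 RPKM in SBS, against 0.768 to 8.87 RPKM in sham. A list of 23 measured hepatocyte markers summed to 10059 RPKM in SBS replicate 1 and 2210 RPKM in SBS replicate 3, against 39.7 to 46.0 RPKM in the sham libraries. Of the 23, 20 were called higher by the quasi-likelihood test and none was at 0 in any library. Exocrine pancreas markers, 16 in all, summed to 3220 and 10050 RPKM in SBS, against 1898 to 50096 RPKM in sham, and neither that test nor the likelihood ratio test called any.

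Summed over the 47 genes, the members reached 842 and 1282 RPKM in the SBS libraries, against 2193, 2304 and 3348 RPKM in the sham libraries, so both SBS libraries were below all sham libraries. The sum over all 12381 genes tested did the same, with 457700 and 559530 RPKM in SBS, against 793540 to 1132700 RPKM in sham. The direction of the sum is thus not particular to the members, and whether their sum fell further than that of all genes was not tested. Without scaling between libraries, the members took 0.316% and 0.419% of the reads on genes in SBS, against 0.417%, 0.533% and 0.57% in sham. In the sham libraries 6 genes, slc15a1b, slc3a2a, slc43a2b, slc7a8a, slc7a7 and slc6a6b, made up 94.6% to 96.1% of the summed level. The 6 highest members of each SBS library made up 69.7% and 87.7% of it, and these were not the same 6. In both SBS libraries they included slc43a2a, and in SBS replicate 1 also slc3a2b. In SBS, slc43a2a made up 7.41% and 1.97% of the summed level, against 0.16% to 0.427% in sham. In bulk tissue, fewer cells of a type and less RNA per cell cannot be told apart.

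**Figure D1:**
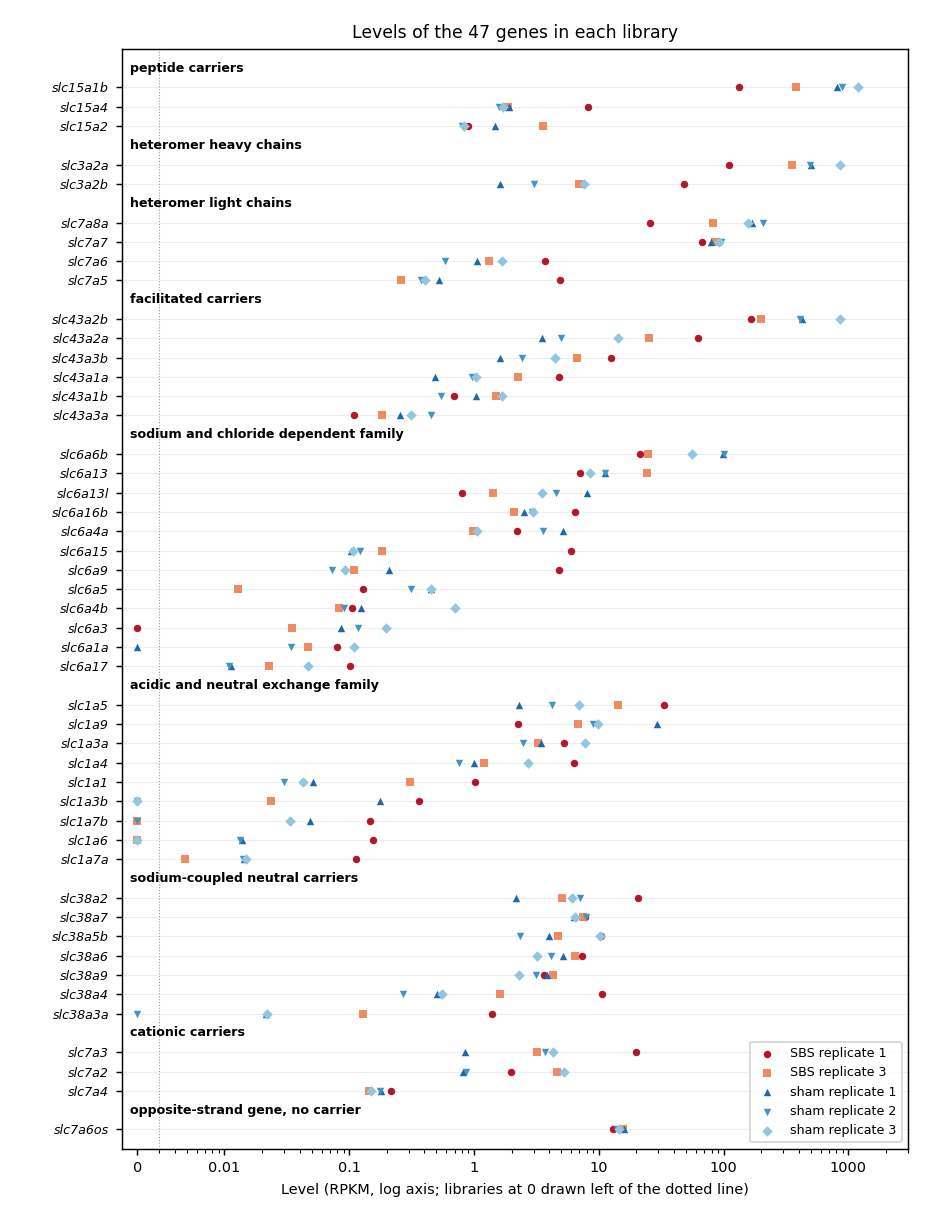
Levels of the 47 genes, grouped by role, with RPKM on a log axis and 1 point per library (SBS in red and orange, sham in blues). The 6 genes with the highest sham levels sit at the right, and 5 of them have both SBS points left of all sham points, the exception being slc7a7.

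Between SBS and sham, edgeR's quasi-likelihood test with Benjamini-Hochberg adjustment over 12381 genes called 1 member higher, slc1a1, and 1 lower, slc6a6b. The limits for a call were 0.05 for the adjusted p and -1.5 and 1.5 for the log2 fold change. Among all genes, 2.49% were called higher and 2.06% lower, so the members' share of 2.13% in each direction was near the background. An unadjusted p under 0.05 was reached by 17 of the 47 (36.2%), against 28.9% of all genes. The likelihood ratio test of edgeR, which does not carry the uncertainty of the spread between so few libraries, called 10 members higher (21.3%, against 9.81% of all genes) and 5 lower (10.6%, against 5.78% of all genes). Both SBS libraries were above all sham libraries for 9 members, against 22.6% of all genes, and below all of them for 10 members, against 24.3% of all genes. These shares of 19.1% and 21.3% were again near the background. The median log2 fold change was 0.60 for the members and 0.00 for all genes tested.

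**Figure D2:**
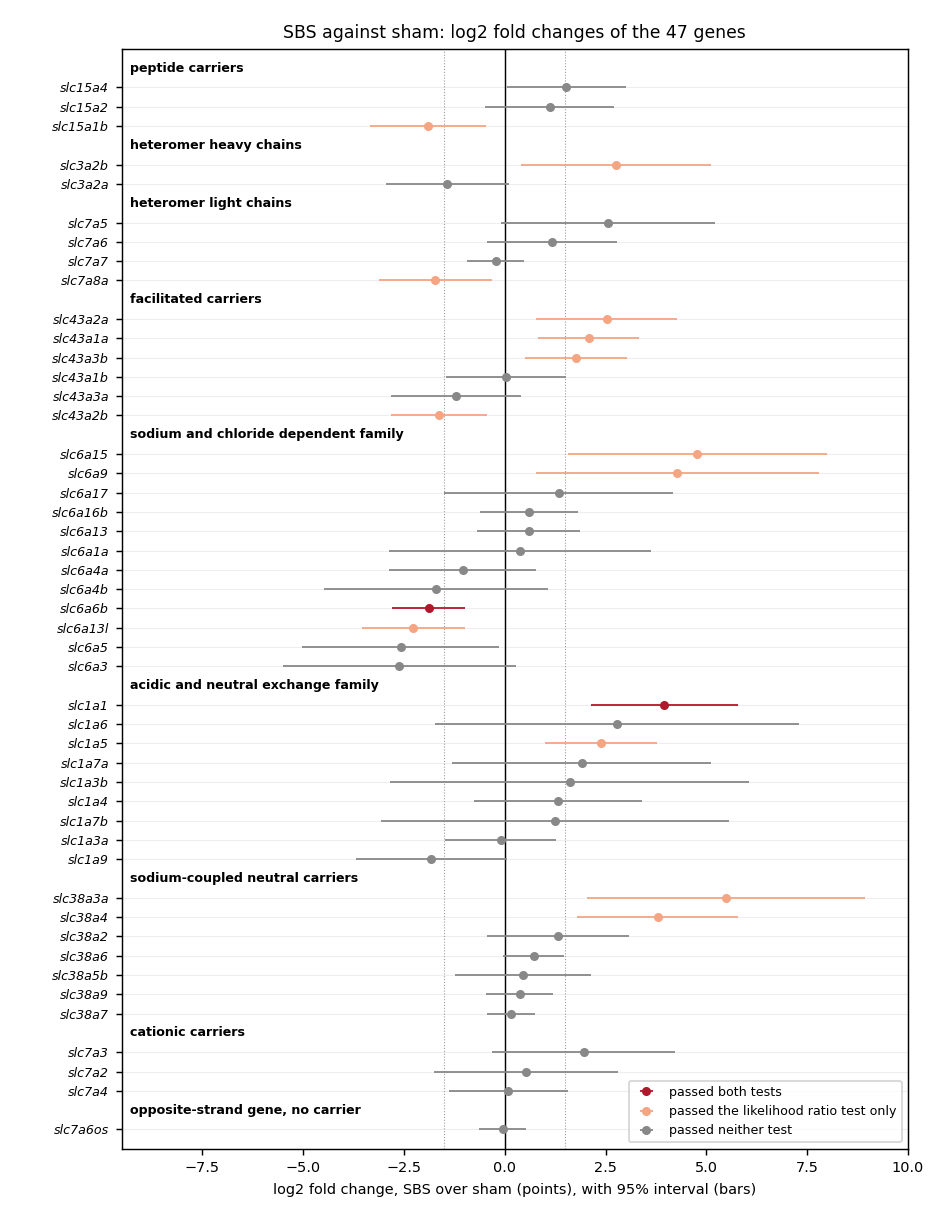
Log2 fold changes of SBS over sham for the 47 genes by role, with 95% intervals as bars and dotted lines at the limits of -1.5 and 1.5. Only slc1a1 and slc6a6b passed the quasi-likelihood test (red), and 13 further genes passed the likelihood ratio test alone (orange).

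Among the peptide carriers, slc15a1b (ENSDARG00000044528, chromosome 6), the PepT1 of the brush border, was the most abundant member in every sham library. It had 133 and 382 RPKM in SBS, against 805, 895 and 1198 RPKM in sham. Both SBS libraries lay below all sham libraries, and the lower of them was SBS replicate 1. The log2 fold change was -1.91 (SE 0.59), with an adjusted p of 0.106 in the quasi-likelihood test and 0.0224 in the likelihood ratio test. By level it ranked 510th and 228th of all genes in the SBS libraries, against 157th to 184th in the sham libraries. The other carriers of the family were low. For slc15a2, which in mammals is the high-affinity peptide carrier of the kidney, the level was 0.888 and 3.60 RPKM in SBS, against 1.48, 0.799 and 0.834 RPKM in sham, and the groups overlapped. Its log2 fold change of 1.11 (SE 0.65, adjusted p = 0.306 in the quasi-likelihood test) came from SBS replicate 3, and without that library it was -0.23. For slc15a4, an endolysosomal carrier of histidine and peptides, SBS replicate 1 had 8.17 RPKM and SBS replicate 3 had 1.86, against 1.60 to 1.92 RPKM in sham. Only SBS replicate 1 stood apart, and the log2 fold change of 1.52 (SE 0.60, adjusted p = 0.164 in the quasi-likelihood test) was 0.10 without it.

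The heavy chains of the heteromeric exchangers were 2 paralogues of slc3a2, the chaperone that carries slc7 light chains to the membrane. The main one in sham intestine, slc3a2a (chromosome 7), had 110 and 350 RPKM in SBS, against 502, 496 and 851 RPKM in sham. Both SBS libraries lay below the sham range, yet neither test called the gene (log2 fold change -1.42, SE 0.62, adjusted p = 0.193 in the quasi-likelihood test). Its paralogue slc3a2b (chromosome 21) had 48.3 and 6.89 RPKM in SBS, against 1.60, 3.05 and 7.56 RPKM in sham. Here SBS replicate 1 stood far above every other library, while SBS replicate 3 was within the sham range. The log2 fold change was 2.76 (SE 0.95), with an adjusted p of 0.13 in the quasi-likelihood test and 0.0235 in the likelihood ratio test, and without SBS replicate 1 it was 0.76. Together the heavy chains had 159 and 357 RPKM in SBS, against 499 to 859 RPKM in sham.

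Of the light chains, slc7a8a (LAT2, an exchanger of neutral amino acids) and slc7a7 (y+LAT1, which exports cationic amino acids against neutral ones) were abundant. For slc7a8a the level was 25.6 and 81.7 RPKM in SBS, against 169, 205 and 157 RPKM in sham. The groups did not overlap, and the log2 fold change was -1.72 (SE 0.57, adjusted p = 0.121 in the quasi-likelihood test and 0.0429 in the likelihood ratio test). In contrast, slc7a7 had 67.2 and 85.4 RPKM in SBS, against 78.8, 96.0 and 91.6 RPKM in sham. The groups overlapped, and the 95% interval of its log2 fold change of -0.22 ran from -0.93 to 0.49. The light chains slc7a5 (LAT1, known from dividing cells) and slc7a6 (y+LAT2) were scarce. For slc7a5 the SBS libraries had 4.91 and 0.26 RPKM, against 0.53, 0.38 and 0.40 RPKM in sham. They lay on either side of the sham range, so that the log2 fold change of 2.56 (SE 1.08, adjusted p = 0.184 in the quasi-likelihood test) became -0.74 without SBS replicate 1. For slc7a6 the levels were 3.70 and 1.31 RPKM in SBS, against 0.589 to 1.68 RPKM in sham (log2 fold change 1.17, adjusted p = 0.289). Its opposite-strand neighbour slc7a6os had 12.9 and 15.6 RPKM in SBS, against 13.9 to 15.9 RPKM in sham. Whether counting used the strand is not given, so reads of this pair may be shared.

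Among the facilitated carriers, the slc43a2 paralogues (LAT4) differed in opposite directions. The abundant slc43a2b (chromosome 10) had 166 and 200 RPKM in SBS, against 422, 413 and 863 RPKM in sham. Both SBS libraries were below all sham libraries and close to each other, and the log2 fold change was -1.63 (SE 0.49, adjusted p = 0.102 in the quasi-likelihood test and 0.0293 in the likelihood ratio test). By contrast, slc43a2a (chromosome 15) had 62.4 and 25.3 RPKM in SBS, against 3.51, 4.99 and 14.3 RPKM in sham. Both SBS libraries were above the sham range, with a log2 fold change of 2.53 (SE 0.71, adjusted p = 0.0925 in the quasi-likelihood test and 0.00652 in the likelihood ratio test). For slc43a3b, whose human counterpart carries purine bases rather than amino acids, the levels were 12.6 and 6.71 RPKM in SBS, against 1.62, 2.43 and 4.48 RPKM in sham. Its log2 fold change was 1.76 (SE 0.51, adjusted p = 0.0971 in the quasi-likelihood test). A LAT3 gene, slc43a1a, was singled out after its values were seen: it had 4.81 and 2.23 RPKM in SBS, against 0.48, 0.96 and 1.04 RPKM in sham, and was called by the likelihood ratio test alone (log2 fold change 2.09, SE 0.51, adjusted p = 0.00543). The remaining genes of the family had log2 fold changes of 0.02 and -1.20 and were called by neither test.

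The sodium and chloride dependent family, slc6, included the 1 member called lower by the quasi-likelihood test. The taurine transporter slc6a6b (ENSDARG00000098438, chromosome 22) had 21.2 and 24.8 RPKM in SBS, against 98.6, 101 and 56.1 RPKM in sham. The SBS libraries were close to each other and below all sham libraries, averaging 23.0 ± 2.55 RPKM in SBS and 85.2 ± 25.2 RPKM in sham (SD, n = 2 and 3). The log2 fold change was -1.89 (SE 0.37), equal to a level 3.71-fold lower in SBS, and the adjusted p of 0.0499 in the quasi-likelihood test was just under the threshold. With DESeq2 size factors the adjusted p was 0.0543, and it was 0.175, 0.143 and 0.106 without sham replicate 1, 2 and 3, 0.104 without SBS replicate 1 and 0.0389 without SBS replicate 3. Over the alternatives tried the adjusted p ran from 1.665e-04 to 0.274 and the log2 fold change from -2.58 to -1.10.

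The slc6a13 genes, related to a mammalian carrier of GABA, taurine and betaine, lie next to each other on chromosome 6. For slc6a13l the levels were 0.804 and 1.41 RPKM in SBS, against 7.99, 4.54 and 3.51 RPKM in sham, with a log2 fold change of -2.26 (SE 0.52, adjusted p = 0.0689 in the quasi-likelihood test and 0.00332 in the likelihood ratio test). Its neighbour slc6a13 had 7.01 and 24.3 RPKM in SBS, against 11.2, 11.2 and 8.54 RPKM in sham. The SBS libraries lay on either side of the sham libraries, and the log2 fold change was 0.60 (SE 0.52, adjusted p = 0.487). How reads that match both neighbours were counted is not given in the sources used here.

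Several slc6 genes known from neurons were scarce in the sham libraries. The branched-chain amino acid and proline carrier slc6a15 had 464 and 24 counts in SBS, against 9, 11 and 9 counts in sham, which is 5.99 and 0.184 RPKM in SBS and 0.104 to 0.122 RPKM in sham. The glycine carrier slc6a9 (GlyT1) had 288 and 11 counts in SBS, against 14, 5 and 6 counts in sham. In both genes SBS replicate 1 stood far above the rest, and their log2 fold changes were 4.78 and 4.29. The adjusted p was 0.0884 and 0.121 in the quasi-likelihood test, and 0.00212 and 0.0138 in the likelihood ratio test, which called both higher. Without SBS replicate 1 the log2 fold changes became 0.72 and -0.18. The other glycine carrier, slc6a5 (GlyT2), had 12 and 2 counts in SBS, against 47, 34 and 46 counts in sham (log2 fold change -2.57, SE 0.99, adjusted p = 0.159). The dopamine carrier slc6a3 had 0 and 3 counts in SBS, against 5, 7 and 11 counts in sham. Scaled to the libraries, the summed counts of slc6a3 give a ratio of SBS over sham of 0.164. Its exact 95% binomial interval, which covers counting error only, runs from 0.0315 to 0.542. All counts of SBS replicate 1 are even, and with them halved the ratio is 0.201 and the interval runs from 0.0387 to 0.667. The remaining 5 genes of the family had log2 fold changes from -1.70 to 1.34, and neither test called any. A list of 13 measured neuron and glia markers summed to 9.34 and 19.6 RPKM in SBS, against 6.37 to 17.1 RPKM in sham, 1 gene, gfap, was at 0 in a library, and none was called by the quasi-likelihood test, while the likelihood ratio test called 1 higher, vip.

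The slc1 family holds the 1 member called higher by the quasi-likelihood test. The glutamate and cysteine carrier slc1a1 (EAAT3, ENSDARG00000020212, chromosome 7) had 88 and 45 counts in SBS, against 5, 3 and 4 counts in sham. As levels these were 1.01 and 0.308 RPKM in SBS, against 0.0514, 0.0298 and 0.0424 RPKM in sham, so the groups were far apart while the gene stayed scarce in both. The log2 fold change was 3.96 (SE 0.74, adjusted p = 0.0456 in the quasi-likelihood test), a level 15.6-fold higher in SBS. The deposited annotation gives the transcript the type nonsense_mediated_decay. Without sham replicate 1, 2 and 3 the adjusted p was 0.162, 0.139 and 0.165, while leaving out SBS replicate 1 gave 0.0887 and leaving out SBS replicate 3 gave 0.00968. Over the alternatives tried the adjusted p ran from 1.293e-04 to 0.236 and the log2 fold change from 2.32 to 4.84.

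A more abundant member of slc1 is slc1a5 (ASCT2, a glutamine and neutral amino acid exchanger, chromosome 15). It had 33.0 and 14.2 RPKM in SBS, against 2.31, 4.25 and 6.93 RPKM in sham. Both SBS libraries were above all sham libraries, and the log2 fold change was 2.39 (SE 0.57, adjusted p = 0.0715 in the quasi-likelihood test and 0.00175 in the likelihood ratio test). The gene slc1a9, placed on the scaffold KN149943.1, had 2.23 and 6.84 RPKM in SBS, against 29.5, 8.90 and 9.86 RPKM in sham. The groups did not overlap, and neither test called it (log2 fold change -1.82, SE 0.76, adjusted p = 0.182 in the quasi-likelihood test). The highest value was that of sham replicate 1, and without that library the log2 fold change was -1.045. The glial glutamate carrier slc1a3a had 5.22 and 3.23 RPKM in SBS, against 3.42, 2.45 and 7.71 RPKM in sham, and its 95% interval ran from -1.47 to 1.28 around a log2 fold change of -0.10. The remaining 5 genes of the family had log2 fold changes from 1.25 to 2.78 with no call, and SBS replicate 1 alone was above all sham libraries for each of them.

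Of the sodium-coupled neutral carriers, slc38, all 7 had log2 fold changes above 0, from 0.15 to 5.49, none was called by the quasi-likelihood test and 2 were called by the likelihood ratio test. Both of these are known as liver carriers in mammals. For slc38a4 (SNAT4) the level was 10.7 and 1.60 RPKM in SBS, against 0.51, 0.27 and 0.55 RPKM in sham, a log2 fold change of 3.79 (SE 0.81, adjusted p = 0.061 in the quasi-likelihood test and 1.37e-04 in the likelihood ratio test). For the glutamine carrier slc38a3a (SNAT3) the SBS libraries had 58 and 9 counts, against 1, 0 and 1 counts in sham. The scaled ratio of SBS over sham was 42.1, with an exact 95% binomial interval from 11.2 to 355 for counting error (adjusted p = 0.0798 in the quasi-likelihood test and 0.0018 in the likelihood ratio test). All counts of SBS replicate 1 are even, and if each of its reads was counted 2 times the 58 counts stand for 29 reads, the ratio is 29.3 and the interval runs from 7.58 to 251. Both genes were higher in SBS replicate 1 than in SBS replicate 3, as was the summed level of the hepatocyte markers given above, whose part in these values was not tested. The system A carrier slc38a2 had 20.5 and 5.05 RPKM in SBS, against 2.16, 7.07 and 6.10 RPKM in sham, with SBS replicate 3 inside the sham range. For slc38a5b the levels were 10.3 and 4.71 RPKM in SBS, against 3.98, 2.32 and 10.3 RPKM in sham. The lysosomal glutamine carrier slc38a7 was even across the libraries, with 7.82 and 7.51 RPKM in SBS, against 6.27, 7.95 and 6.45 RPKM in sham.

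The cationic carriers had no call by either test. For slc7a3 the levels were 19.8 and 3.21 RPKM in SBS, against 0.854, 3.74 and 4.28 RPKM in sham, so that only SBS replicate 1 was outside the sham range. The log2 fold change of 1.96 (SE 0.92, adjusted p = 0.222 in the quasi-likelihood test) was 0.12 without that library. The arginine and lysine carrier slc7a2 had 1.99 and 4.66 RPKM in SBS, against 0.821, 0.855 and 5.22 RPKM in sham. The scarce slc7a4 had 16 and 18 counts in SBS, against 15, 15 and 12 counts in sham.

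Within a library, the balance between related genes needs no scaling between libraries. The slc3a2b share of the summed slc3a2 level was 30.5% and 1.93% in SBS, against 0.318%, 0.611% and 0.88% in sham. The slc43a2a share of the slc43a2 level was 27.4% and 11.2% in SBS, against 0.826%, 1.19% and 1.63% in sham. In slc3a2 and slc43a2 the minor gene of sham intestine thus had a larger share in both SBS libraries. Other paralogue pairs did not share this. For slc43a3 the major gene of sham intestine, slc43a3b, had the larger share in SBS. It made up 99.1% and 97.4% there, against 86.3%, 84.4% and 93.4% in sham. The shares within slc43a1 and slc6a4 overlapped between SBS and sham. For the light chains, slc7a7 made up 72.4% and 51.1% of the summed slc7a7 and slc7a8a level in SBS, against 31.8%, 31.9% and 36.9% in sham. The share of slc6a13, the major gene in its pair with slc6a13l, was 89.7% and 94.5% in SBS, against 58.5%, 71.2% and 70.9% in sham. The ratio of slc7a8a to the heavy chain slc3a2a did overlap, with 0.232 and 0.233 in SBS, against 0.337, 0.414 and 0.184 in sham. Of 12 such pairs compared, 9 did not overlap between SBS and sham. Several pairs share a gene, such as slc3a2a, slc7a8a or slc15a1b, so the 9 are not separate results. For slc43a2a and slc43a2b the lack of overlap follows from the levels given above. The share of other gene pairs without overlap was not computed, so the count has no background. With 2 libraries against 3 the smallest exact two-sided permutation p is 0.2, which each of the 9 had (0.267 after Benjamini-Hochberg adjustment over the 12), so none could pass 0.05.

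**Figure D3:**
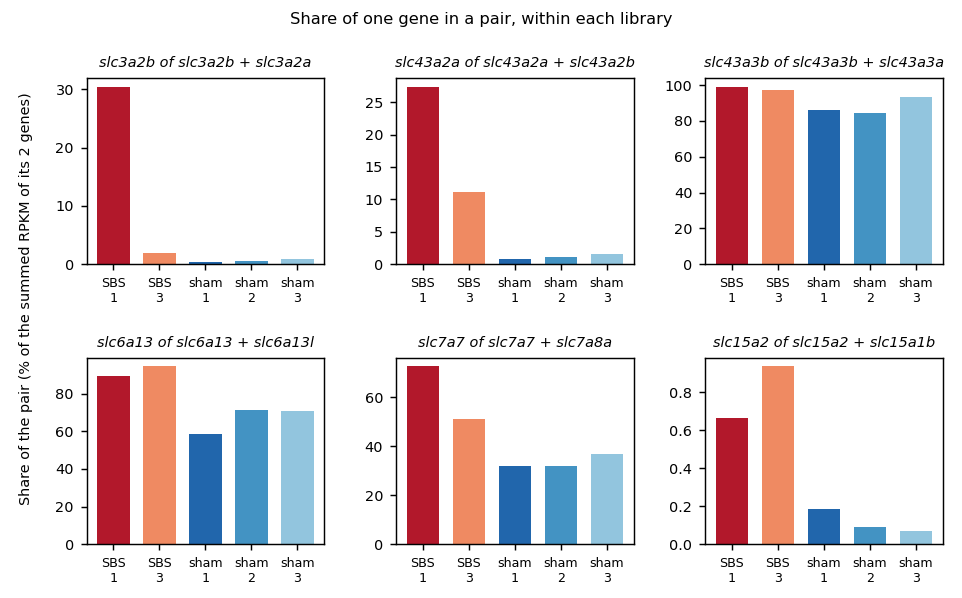
Share of one gene in the summed RPKM of a pair, as 1 bar per library with axes from 0 and a separate scale in each panel. The 6 pairs drawn are among the 9 without overlap, so in each both SBS bars are above all sham bars. For slc43a2a these are 27.4% and 11.2% in SBS, against at most 1.63% in sham.

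The SBS libraries differed from each other. For all 10 members that the likelihood ratio test called higher, SBS replicate 1 was above SBS replicate 3, as it was for 74.3% of all genes so called. For all 5 called lower it was the lower of them, whereas SBS replicate 1 was the higher one in 25.4% of all genes so called. In SBS replicate 1 alone, 16 members (34%) were above all sham libraries, against 15.8% of all genes. In SBS replicate 3 alone these were 3 members (6.38%), slc15a2, slc38a9 and slc6a13, against 12.1% of all genes. The median log2 ratio of the members to the sham mean, with 0.1 RPKM added, was 0.71 for SBS replicate 1 and -0.06 for SBS replicate 3, against -0.08 and -0.05 for all genes tested in the same libraries. The hepatocyte markers were higher in SBS replicate 1 for 21 of 23 genes. Leukocyte markers, 14 measured, also differed between SBS replicates 1 and 3, in both directions. For mmp13a the levels were 520 and 4.66 RPKM, and for mpx 88.7 and 3446 RPKM. The part of either list in the difference between the members of the SBS libraries was not tested. Without SBS replicate 1, the quasi-likelihood test called no member higher, against 2.69% of all genes, and 1 lower, slc6a5, against 1.86% of all genes, and the median log2 fold change of the 43 members then tested was -0.016. Without SBS replicate 3, it called 12 higher (25.5%, against 10.5% of all genes) and 5 lower (10.6%, against 8.35% of all genes). With a single SBS library left, its spread is taken to be that of the sham group.

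**Figure D4:**
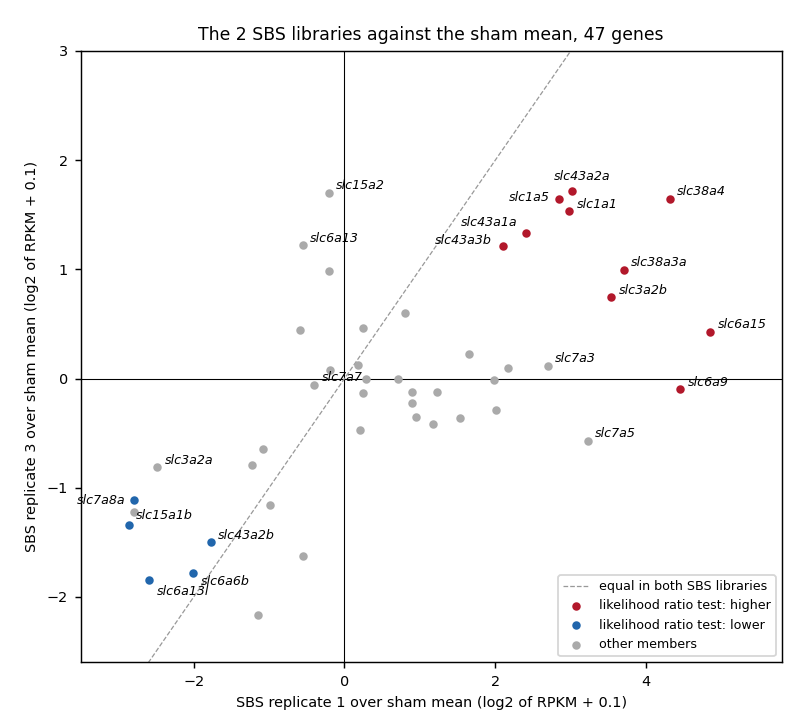
Each of the 47 genes as 1 point, by its log2 ratio to the sham mean in SBS replicate 1 (horizontal) and SBS replicate 3 (vertical), with 0.1 RPKM added and a dashed line of equal values. The 10 genes that the likelihood ratio test called higher (red) lie right of the line, and the 5 called lower (blue) lie left of it, farther from 0 in SBS replicate 1.

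The members were also grouped by sham level. Of the 6 members with a sham mean of at least 50 RPKM, 5 had both SBS libraries below all sham libraries and none had both above, with a median log2 fold change of -1.68. Among all 1337 genes at that level, 52.8% were below and 8.68% above, with a median of -0.85. Of the 8 members between 5 and 50 RPKM, 2 were below and 1 above, against 29.3% below and 18.1% above in all 5116 genes of that range. Of the 16 members between 0.5 and 5 RPKM, none was below and 4 were above, with a median of 1.14, against 16.1% below and 24.7% above and a median of 0.20 in all 3985 genes of that range. Under 0.5 RPKM, 3 of 17 members were below (17.6%) and 4 above (23.5%), with a median of 1.61, against 8.23% below and 39.7% above and a median of 1.17 in all 1943 genes of the range. The sham level enters both the grouping and the fold change, and in all genes the medians differed between these ranges too.

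Genes that work with the transporters were mostly lower. Of 21 measured genes of peptide digestion and carrier partners, not all of the brush border, 6 were called lower and none higher by the quasi-likelihood test. That is 28.6%, against 2.06% of all genes lower, and the median log2 fold change was -1.75, against 0.00 for all genes. The list was chosen with earlier results of these data known, so its share is a description and no test. Many of the listed genes had high sham levels, and all genes with at least 50 RPKM in sham had a median of -0.85. The summed level of the 21 genes was 1311 and 2909 RPKM in SBS, against 8452 to 9640 RPKM in sham. The likelihood ratio test called 11 lower, against 5.78% of all genes, and 1 higher, against 9.81% of all genes. The higher one was the gamma-glutamyltransferase ggt1a, with 8.48 and 0.167 RPKM in SBS, against at most 0.0132 RPKM in sham. The 6 called lower by the quasi-likelihood test were cpo, xpnpep1, xpnpep2, pepd, slc16a10 and pdzk1. The brush border carboxypeptidase cpo had 0.335 and 2.88 RPKM in SBS, against 186, 165 and 315 RPKM in sham (log2 fold change -7.08, SE 1.14, adjusted p = 0.0337 in the quasi-likelihood test). The scaffold protein pdzk1, which in mammals binds carriers of the apical membrane, had 106 and 145 RPKM in SBS, against 1101, 858 and 1080 RPKM in sham (log2 fold change -3.02, SE 0.42, adjusted p = 0.0253). The aromatic amino acid carrier slc16a10 (TAT1) had 23.2 and 15.5 RPKM in SBS, against 82.3, 93.7 and 146 RPKM in sham (log2 fold change -2.47, SE 0.42, adjusted p = 0.0366). The prolidase pepd, which splits dipeptides ending in proline, had 91.0 and 110 RPKM in SBS, against 313, 346 and 286 RPKM in sham. The aminopeptidases anpepa and anpepb had log2 fold changes of -1.18 and -1.75 with no call in the quasi-likelihood test. These genes moved with the absorptive enterocyte markers, of which 14 of 16 had log2 fold changes below 0, and anpepa and anpepb are in both lists. The part of those markers in the levels of slc15a1b, slc3a2a, slc43a2b, slc7a8a and slc6a6b was not tested.

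The direction of members near 0 depended on the scale. With total reads on genes as the scale, the median log2 fold change of all genes was 0.82 and that of the members 1.47, and slc1a3a, slc7a6os and slc7a7 changed sign to 0.81, 0.77 and 0.59. With spike-in reads as the scale the median of all genes was -0.63 and that of the members 0.11, and slc38a7, slc6a13, slc7a2 and slc7a4 changed sign to -0.49, -0.25, -0.07 and -0.48. Total reads gave 12 members higher (25.5%) and none lower, where 16.9% of all genes were called higher and 1.6% lower. Spike-in reads gave 4 members higher (8.51%) and 7 lower (14.9%), where 2.83% of all genes were called higher and 8.34% lower. On both scales slc15a1b, slc3a2a, slc43a2b, slc7a8a and slc6a6b kept log2 fold changes below 0, and slc1a1, slc1a5, slc43a2a and slc38a4 kept values above 0. Which spike-in mix each library received is not given, so spike-in reads may not be a common scale for SBS and sham.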

How the data were processed

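The authors trimmed reads with Trimmomatic after FastQC, aligned them with STAR and counted them with HTSeq. The study's methods name danRer7 and the submitters' processing notes GRCz10/danRer10. Versions, annotation release and strand setting are not given in the sources used here. The deposited counts are raw counts per gene. The deposited RPKM values were made by the authors with edgeR from counts, gene length and a library size. They entered no test other than limma. Deposited columns of the authors' own comparison were not used. The length column of the deposited table, in bases, served for the RPKM computed here.

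Of 12418 gene rows, 20 repeats were left out, and 12381 genes with at least 10 counts over the 5 distinct libraries were tested. Spike-ins, 70 rows, were 1.72% and 2.43% of reads in SBS and 0.663% to 0.809% in sham. TMM factors were 1.50 and 1.33 in SBS and 0.707 to 0.919 in sham. Tests used R 4.3.3, edgeR 4.0.16 (glmQLFit and glmQLFTest), limma 3.58.1, DESeq2 1.42.0 and, for exact permutation tests, scipy 1.17.1. Standard errors are the log2 fold change divided by the square root of F. The scripts were tested on simulated data. Intervals on counts cover counting error only, since reads carry no molecular identifiers. Whether the fish of a group are independent beyond their labels is not known, so p-values refer to these libraries only. Those of edgeR set the difference between the groups against a spread estimated partly from other genes.

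The members and lists were chosen with earlier results of these data known. Genes named are every called member, the 5 highest and 5 lowest log2 fold changes, the 3 most abundant members of each role, all heavy and light chains, all peptide carriers and members at 0 counts in a group. By gene ID, 46 of 47 members were found in the name table, where names can differ. It gives slc6a13 as slc6a22.1 and slc6a13l as slc6a22.2. Further lists covered ileal-type and protein-absorbing enterocytes (8 measured, 1 called higher by the quasi-likelihood test and 3 by the likelihood ratio test), leukocytes (14 measured, 1 and 6 called higher) and smooth muscle (9 measured, 0 and 1 called lower). Alternatives were DESeq2 size factors, total or spike-in reads as the scale, the likelihood ratio test, filterByExpr, every gene with 1 count or more and a replicate block. Further ones were DESeq2's Wald test, RUVg with 1 factor and 5000 genes left out of its controls, and limma on log2 of the deposited RPKM plus 0.1. The last were no fold change limit and leaving out each library. SBS replicate 1 halved, also in the intervals of slc38a3a and slc6a3, and all 6 columns were added after seeing the data.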

Additional observations from a re-analysis of the deposited data

How the results depend on the processing

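Whether the replicate numbers pair the libraries is not known. Same-numbered libraries correlated at -0.11 and -0.12 in their deviations from the group means, over 2 pairs. With 2 SBS libraries their deviations are exact opposites, so these values cannot decide it. With the replicate block the counts were 0 members higher, 0 lower and 0 genes in all, with 1923 genes at an unadjusted p under 0.05. DESeq2 size factors and no filter each left 0 members lower. Total reads as the scale gave 12 members higher, 0 lower, a median of 1.47 and 2293 genes, and spike-in reads gave 4, 7, 0.11 and 1382. The spike-ins come as 2 mixes, and which mix each library received is not given in the sources used here. The study compared observed with expected fold changes of the spike-ins. If SBS and sham received different mixes, spike-in reads are no common scale for them. The likelihood ratio test gave 10, 5 and 1931 genes, the Wald test of DESeq2 10, 5 and 1888. RUVg gave 7 and 5 with a median of 0.19 and 1699 genes. Limma called 0 members in either direction, with 16 members at an unadjusted p under 0.05. All 6 columns, which count 1 library as if it were 2, gave 9, 5 and 1936 genes. Leaving out 1 library gave 0 to 12 members higher, 0 to 5 lower, a median of -0.016 to 1.09 and 0 to 2330 genes. Without sham replicate 1, 2 or 3 the quasi-likelihood test called 0 genes, although 2214, 2660 and 2442 had an unadjusted p under 0.05. The cause of these shifts was not tested.

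Of 32 named members, 12 changed sign under at least 1 alternative, by these log2 fold changes. Total reads gave 0.81 for slc1a3a, 0.77 for slc7a6os and 0.59 for slc7a7. Spike-in reads gave -0.49 for slc38a7, -0.25 for slc6a13, -0.067 for slc7a2 and -0.48 for slc7a4. Limma gave 0.065 and all 6 columns 0.058 for slc1a3a, RUVg gave -0.029 for slc7a4 and 0.078 for slc7a6os, and DESeq2 gave 0.002 with its size factors and 0.003 with its Wald test for slc7a6os. Over the fits without 1 library the ranges were -0.23 to 1.79 for slc15a2, -0.48 to 0.56 for slc1a3a, -0.016 to 2.00 for slc38a2, -0.23 to 1.29 for slc38a5b, -0.56 to 1.23 for slc6a13, -0.18 to 5.26 for slc6a9, -0.21 to 2.01 for slc7a2, -0.22 to 0.36 for slc7a4, -0.74 to 3.49 for slc7a5 and -0.19 to 0.077 for slc7a6os. Depth limits slc1a1, slc38a3a, slc6a3, slc6a5 and slc7a4, whose sham or SBS libraries hold few reads. Promoter letters were not searched.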
